A study of Danio rerio with 12 samples.

Results

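The high-speed (HS) fraction of *chchd4a*-/- zebrafish larvae was compared with the HS fraction of WT larvae. The comparison takes 6 of the 12 libraries of the study, 3 per genotype, and the other 6 libraries hold the membrane-bound (MB) fraction of the same genotypes. Genes were tested when they had more than 50 counts in total in the 6 libraries of each genotype, which was the case for 23452 of 31778 genes. Mutant larvae were *mia40a*-/- (*mia40a* is another name of *chchd4a*), WT larvae were *mia40a*+/+, and both were of strain AB, aged 5 dpf, and carried the transgene *Tg(Xla.Eef1a1:mlsEGFP)cms1*, which labels mitochondria with a fluorescent protein under a frog *Eef1a1* promoter. The WT larvae came from crosses of +/+ parents and the mutants from crosses of heterozygous parents, from whose offspring the mutants were picked at 4 dpf by their fluorescent mitochondria, so genotype and parentage cannot be told apart. Larvae were pooled and homogenized, nuclei and debris were removed, the MB fraction was pelleted at 14000*g*, and the HS fraction was pelleted from what remained at 100000*g*. Each library started from 2 μg of RNA with ERCC spike-in RNA (synthetic transcripts added in known amounts), and polyadenylated RNA was captured. The labels do not say whether replicates came from separate clutches, so the p-values measure only the spread between these libraries. In RNA from whole larvae, fewer cells of a type and less RNA per cell cannot be told apart.

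Chchd4, called Mia40 in yeast, is an oxidoreductase of the mitochondrial intermembrane space. It traps small proteins with paired cysteines as they enter and helps them to fold by forming disulfide bonds, a route known as the MIA pathway. Most other mitochondrial proteins are also translated from nuclear genes, on cytosolic ribosomes or on ribosomes at the mitochondrial surface. The HS fraction gathers small membranes and ribosomes with their mRNA after mitochondria and larger pieces of ER have been spun out. Disturbed mitochondria can switch on the integrated stress response, in which Atf4 raises genes for amino acid supply, tRNA charging, and redox balance.

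The libraries were of similar depth but 1 of them stood apart. Gene counts came to between 60807994 and 80520262 in the mutant HS libraries and to between 48834340 and 78370814 in the WT HS libraries. Across all tested genes, WT HS replicate 1 correlated with WT HS replicates 2 and 3 at 0.938 and 0.922 (Pearson's r of log2 CPM, across genes), and these 2 correlated at 0.991 with each other. With WT MB replicate 1 it correlated at 0.934. The genotypes were not fully separate either. Mutant HS replicate 3 correlated with mutant HS replicates 1 and 2 at 0.976 and 0.955, and with WT HS replicates 2 and 3 at 0.966 and 0.976. Spike-ins took 4.99%, 3.15%, and 8.21% of all counts in mutant HS replicates 1, 2, and 3, and 30.03%, 14.2%, and 9.82% in WT HS replicates 1, 2, and 3. Every mutant library thus had a lower spike-in share than every WT library (exact permutation test, two-sided, n = 3 per group, p = 0.10, the smallest that 3 against 3 allows). Over the 50 spike-ins with more than 50 counts in each library, log2 ratios to WT HS replicate 2 had an SD of 0.75 in WT HS replicate 1, against 0.06 to 0.13 in the other HS libraries. In the MB libraries this SD was 0.54 to 0.59. The paper names ERCC ExFold mixes but does not state which mix each library received. A single gene without a symbol, ENSDARG00000080337, held 0.465%, 0.846%, and 1.82% of the gene counts of mutant HS replicates 1, 2, and 3, against 18.3%, 8.49%, and 6.38% in WT HS replicates 1, 2, and 3. This gene was singled out after its values were seen. Because of WT HS replicate 1, the test of each gene was also run without it. A change is said to hold when the gene was called in the same direction in both fits. Shares of positive values or of groups that did not overlap were computed with all libraries only. So were list counts at an unadjusted p or with DESeq2, and the scaling to spike-ins.

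**Figure D1:**
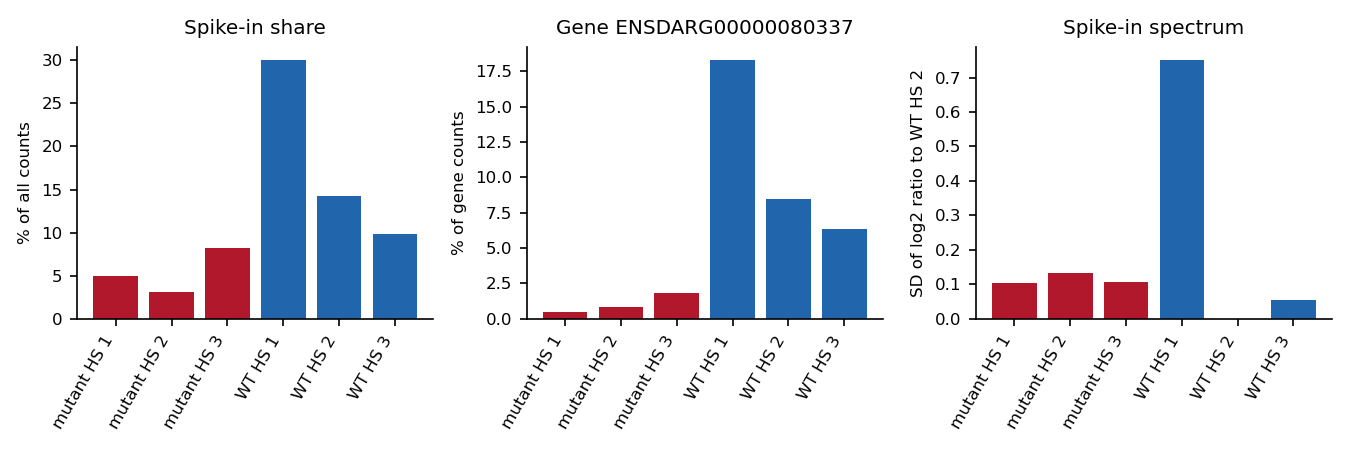
Bars give, for each HS library, the share of all counts in ERCC spike-ins (left, %), the share of gene counts in ENSDARG00000080337 (middle, %), and the SD of the log2 ratios of 50 spike-ins to WT HS replicate 2 (right, 0 for that library itself). WT HS replicate 1 is the highest in all panels, at 30.03%, 18.3%, and 0.75.

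The targeted gene was checked first. *chchd4a* reached 17.5, 11.4, and 27.02 CPM (counts scaled to the library size by TMM, the unit of all levels below) in mutant HS replicates 1, 2, and 3, against 3.801, 12, and 12.4 CPM in WT HS replicates 1, 2, and 3. The groups overlapped, as mutant replicate 2 lay below WT replicates 2 and 3. The log2 fold change, mutant over WT, was 0.98 ± 0.39 (SE; adjusted p = 0.0938, quasi-likelihood test of edgeR, adjusted over all tested genes by the Benjamini-Hochberg method), and 0.64 without WT HS replicate 1 (adjusted p = 0.145). The transcript level therefore did not mark the mutants, and gene counts do not show the mutation itself. Its paralog *chchd4b* had 6.34, 5.79, and 9.45 CPM in mutant HS, above the 1.15, 3.77, and 4.01 CPM of WT HS in every library. It rose by 1.26 ± 0.39 on the log2 scale (edgeR, adjusted p = 0.0391), and by 0.92 without WT HS replicate 1 (adjusted p = 0.0411). *chchd4b* was the only called gene among 4 of the MIA import machinery, and its call was lost in 7 of the 12 fits that left out 1 library.

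Over all tested genes, 1701 were higher in mutant HS and 2809 were lower at an adjusted p of at most 0.05, which is 7.25% and 12% of the genes tested. Of these, 1041 and 2352 changed by at least 1 on the log2 scale, and the median log2 fold change of all genes was 0.06. Without WT HS replicate 1 there were 1470 higher and 1964 lower genes. In both fits, 1191 genes were higher and 1843 lower (5.08% and 7.86% of the genes tested), and 0 genes were called in opposite directions. The remaining 510 higher and 966 lower genes were called only with WT HS replicate 1 in the fit, and 279 and 121 only without it. Among the genes lower in both fits, 90.3% had a smaller log2 fold change without WT HS replicate 1, at a median of -1.29, against -1.83 with it. Among those higher in both fits, 67.2% had a smaller one, at a median of 1.06, against 1.14. WT HS replicate 1 was the highest of the 3 WT libraries for 90.1% of the genes called lower, against 45.5% of all genes tested. The genes behind the 90.3%, 67.2%, and 90.1% were all called with that library in the fit, which by itself can favor such shares. Among the genes called lower without it, it was the highest WT library for 81.0%.

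These calls rest on a fit of all 12 libraries, which estimates the spread from both fractions. That fit treated all libraries as independent. Same-numbered HS and MB libraries of a genotype, however, deviated together from their group means (correlations of 0.27 to 0.60 across genes). The spread thus rests on fewer independent units than 12, which the p-values do not allow for. When only the 6 HS libraries were fitted, edgeR called 0 genes in either direction, with 5669 of 23452 genes at an unadjusted p under 0.05 and a smallest adjusted p of 0.0546. The HS libraries without WT HS replicate 1 gave 151 higher and 834 lower genes, and DESeq2 on the 6 HS libraries gave 1044 and 2277. Both of these fits were added after the data were seen. Leaving out mutant HS replicate 1 lowered the counts of the 12-library fit most, to 615 higher and 1317 lower genes, and leaving out WT HS replicate 2 left 1036 higher genes. All directions are relative to the typical gene. When libraries were scaled to their spike-in counts instead, the median log2 fold change of all genes was 1.82, and 12969 genes were higher and 37 lower. This scaling was not run without WT HS replicate 1, which had the largest spike-in share. Under that scaling the medians of all lists named below were positive, that of the neuronal list included (0.86). Many called drops then turned into positive values, large ones such as those of *slc7a11*, *tomm70a*, *PSMD1*, and *sec62* included, and these values are given in the closing section.

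The order of the libraries within each genotype also went with these calls. Spike-in shares decreased in the order WT HS replicate 1, 2, and 3, then mutant HS replicate 3, 1, and 2. Among the 1964 genes called lower without WT HS replicate 1, the left-out library was the highest WT library for 81.0%, WT replicate 2 lay above WT replicate 3 for 69.4%, and mutant replicate 3 was the highest mutant library for 73.0%. Over all genes tested, these shares were 45.5%, 49.9%, and 38.6%. Among the 1470 genes called higher in that fit, mutant replicate 3 was the lowest mutant library for 56.9%, against 36.8% of all genes. The part of the spike-in share in the differences between genotypes was not tested.

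**Figure D2:**
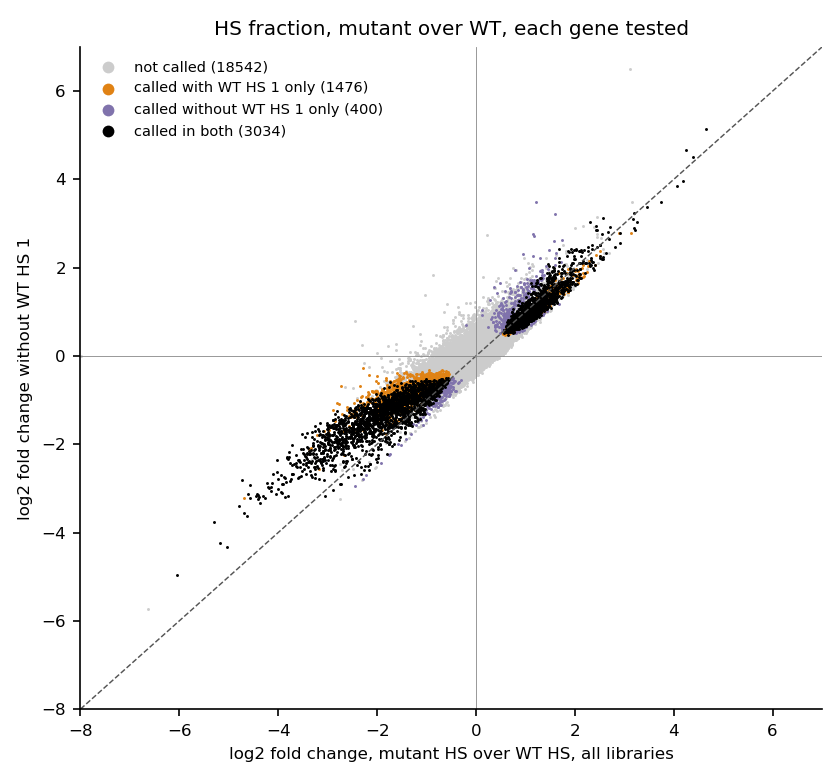
Each point is a tested gene, with its log2 fold change (mutant HS over WT HS) from all libraries on the x axis and without WT HS replicate 1 on the y axis. Genes called in both fits are black, those called only with WT HS replicate 1 orange (1476), those called only without it purple (400), and the rest grey, with a dashed line of equal values. Of the genes lower in both fits, 90.3% lie nearer to 0 on the y axis than on the x axis.

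Among the most strongly raised genes were those for a glutathione S-transferase, a protease of lysosomes, a ferritin-like protein, and an enzyme of sterol synthesis. The 12 with the largest changes were taken from 796 genes with a symbol and more than 1000 counts over the HS libraries that were called in both fits and had every mutant library above every WT library, as 16.3% of all genes had. Symbols in capitals are those of the human orthologue. *ctsll*, encoding a cathepsin L-like protease of lysosomes, had 14.1, 8.99, and 12.3 CPM in mutant HS, against 0.863, 1.04, and 1.28 CPM in WT HS. It rose by 3.46 ± 0.39 on the log2 scale (edgeR, adjusted p = 0.00154), and by 3.37 without WT HS replicate 1. *gstp2*, encoding a pi-class glutathione S-transferase, had 40.0, 24.6, and 37.5 CPM in mutant HS, against 5.46, 9.80, and 6.43 CPM in WT HS, and rose by 2.23 ± 0.31 (2.1 without WT HS replicate 1). The libraries within each genotype lay close together for both genes.

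Other genes of this group varied more between the mutant libraries. *si:dkey-85k7.7* had the largest change of the 12, with 183, 126, and 14.8 CPM in mutant HS, against 4.34, 12.9, and 6.90 CPM in WT HS (log2 fold change 3.74 ± 0.90). Mutant replicate 3 lay only just above WT replicate 2. *fthl27* (ENSDARG00000116586), a ferritin heavy chain-like gene whose kind of product stores iron, had 26.3, 44.9, and 14.1 CPM in mutant HS, against 0.767, 2.20, and 6.0 CPM in WT HS (3.22 ± 0.70). *leap2*, encoding a liver peptide with antimicrobial action, had 18.1, 37.8, and 11.1 CPM in mutant HS, against 1.41, 5.04, and 4.24 CPM in WT HS (2.63 ± 0.56). In both, mutant replicate 2 was the highest library. The other genes were *CR848040.3*, *si:ch73-14h10.4*, *znf1179*, *si:dkey-201c13.2*, *CABZ01070527.1*, *MSMO1*, and *si:dkeyp-27c8.2*, with log2 fold changes between 2.31 and 3.18. Without mutant HS replicate 2, the log2 fold change was 1.41 for *CABZ01070527.1*, against 2.50 with it, 1.93 for *si:ch73-14h10.4*, against 2.91, 2.18 for *znf1179*, against 2.91, 2.37 for *CR848040.3*, against 3.18, and 2.01 for *leap2*. The calls of *CABZ01070527.1* and *si:dkey-201c13.2* were lost in that fit (edgeR, adjusted p of 0.0718 and 0.0546), and that of *si:dkey-85k7.7* without mutant HS replicate 1 (adjusted p of 0.0575).

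Among the 12 most strongly lowered genes were those for a clustered protocadherin, a Wnt ligand, 2 microtubule-associated proteins, and a vesicle coat subunit. They were taken from 1521 genes chosen in the same way in the other direction, against 17.2% of all genes with every mutant library below every WT library. *WNT9A*, encoding a Wnt ligand, had 0.191, 0.399, and 0.678 CPM in mutant HS, against 29.8, 10.3, and 6.30 CPM in WT HS. It fell by 5.17 on the log2 scale (SE 0.69, edgeR, adjusted p = 0.00248) and by 4.23 without WT HS replicate 1. *AP3B2*, the neuronal beta subunit of the AP-3 vesicle coat in mammals, had 6.22, 5.19, and 16.9 CPM in mutant HS, against 446, 92.0, and 80.7 CPM in WT HS. Its log2 fold change was -4.45 ± 0.73, and -3.17 without WT HS replicate 1. For both genes the WT libraries stood in the order 1, 2, 3 and mutant replicate 3 was the highest mutant library.

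*FAM168A* had 5.36, 5.84, and 18.8 CPM in mutant HS, against 570, 233, and 175 CPM in WT HS (log2 fold change -5.03 ± 0.62). *map6b*, encoding a microtubule-associated protein, had 1.13, 1.11, and 5.93 CPM in mutant HS, against 151, 28.2, and 20.3 CPM in WT HS (-4.60 ± 0.85, and -3.13 without WT HS replicate 1). *pcdh2ab8*, a clustered protocadherin of neurons, had the largest drop, with 0.153, 0.230, and 2.49 CPM in mutant HS, against 132, 27.9, and 33.3 CPM in WT HS (-6.06 ± 1.59). Its call was the least certain of the 12, at an adjusted p of 0.0199 with all libraries and of 0.045 without WT HS replicate 1 (edgeR), and it was lost when mutant HS replicate 1 or 2 was left out. The other genes were *si:ch211-153j24.3*, *cpne8*, *si:dkey-175m17.7*, *tep1*, *SIPA1*, *CABZ01005379.1*, and *map7a*, with log2 fold changes between -4.80 and -4.40. Without WT HS replicate 1 these ran from -3.62 to -2.93, and all 7 held.

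**Figure D3:**
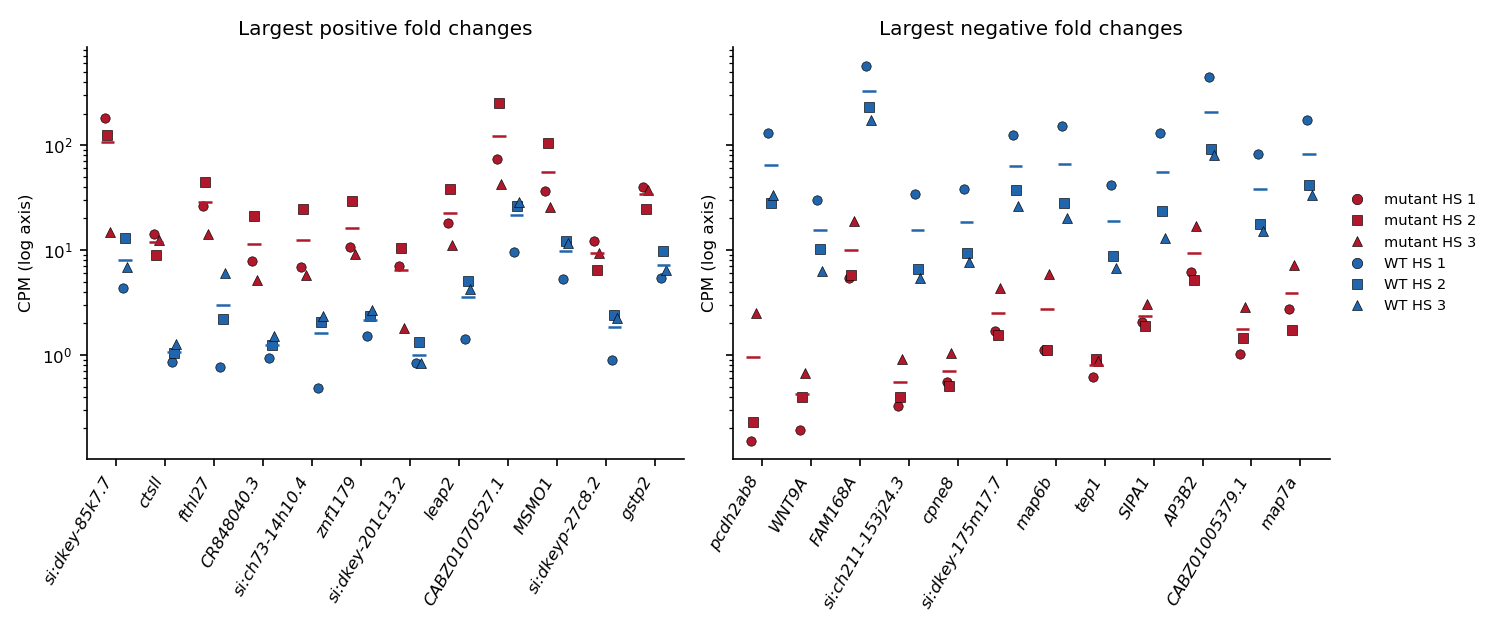
Level in CPM (log axis) of the 12 genes with the largest positive (left) and the 12 with the largest negative (right) log2 fold changes. Red points are mutant HS libraries, blue points WT HS libraries, shapes mark replicates 1 to 3, and lines are group means. No mutant point reaches the WT points of its gene on either side, and WT HS replicate 1 is the highest WT point for all genes on the right.

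In most lists of nuclear genes for mitochondrial proteins, calls were mostly in the higher direction. Of 40 genes for likely MIA substrates, the small proteins with paired cysteines, 9 were higher and 2 lower, a share of 22.5% and 5.00% beside 7.25% and 12% of all genes. Their median log2 fold change was 0.66, against 0.06 for all genes, and 7 higher and 1 lower gene held without WT HS replicate 1, at a median of 0.43. *cox6b2*, encoding a subunit of cytochrome *c* oxidase, had 367, 311, and 428 CPM in mutant HS, against 129, 176, and 212 CPM in WT HS, and rose by 1.1 ± 0.22 (edgeR, adjusted p = 0.00646). *CHCHD3*, encoding a subunit of the complex that shapes cristae, had 101.2, 99.0, and 87.1 CPM in mutant HS, against 46.5, 55.7, and 55.2 CPM in WT HS (0.87 ± 0.17). *CHCHD7* rose by 1.37. Every mutant library lay above every WT library for these 3 genes. The lower genes were both copies of the copper chaperone for superoxide dismutase, *ccs* (ENSDARG00000116246, log2 fold change -3.08, and -1.82 without WT HS replicate 1) and *CCS* (ENSDARG00000092003, -1.24). Only the first of these held (adjusted p without WT HS replicate 1 of 0.0171 and 0.0503), and as near copies they may share reads.

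Of 95 tested nuclear genes for subunits of oxidative phosphorylation (OXPHOS), 10 were higher and 0 lower, 8 of them in both fits. The share of 10.5% lay close to the 7.25% of all genes, while 96.8% of these genes had a positive log2 fold change, against 53.5% of all genes, with a median of 0.50 (0.33 without WT HS replicate 1). *cox6a1* had 241, 240, and 213 CPM in mutant HS, against 74.7, 111, and 101.2 CPM in WT HS (1.27 ± 0.21), and *cox7a2l*, whose product joins complexes into supercomplexes, rose by 1.47. The citrate cycle and pyruvate dehydrogenase had the largest share of higher genes of the lists with more than 10 genes, at 9 of 23 (39.1%), with 0 lower and 7 in both fits. *MDH2*, encoding mitochondrial malate dehydrogenase, had 836, 1209, and 878 CPM in mutant HS, against 350, 505, and 502 CPM in WT HS (1.11 ± 0.23). *SUCLG2* and *SUCLG1*, subunits of succinyl-CoA ligase, rose by 1.35 and 0.71, and *dldh*, the shared dihydrolipoamide dehydrogenase, by 0.80. In the citrate cycle, OXPHOS, and antioxidant lists, 0 genes were lower also at an unadjusted p under 0.05 or with DESeq2, which called 10, 23, and 15 of their genes higher. Without mutant HS replicate 1, edgeR called 2, 4, and 3 of them higher.

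Of 22 genes of the TOM and TIM translocases, 3 were higher (13.6%) and 2 lower (9.09%), beside 7.25% and 12% of all genes. Values were mostly positive, at 77.3% of these genes and a median of 0.60, and 40.9% had every mutant library above every WT library, against 16.3% of all genes. At an unadjusted p under 0.05, 11 were higher and 2 lower, and DESeq2 called 9 and 2. Genes for the receptor *TOMM20* (0.99), the small subunit *TOMM5* (1.08), and the channel-like *tomm40l* (1.2) rose. *tomm70a*, the receptor for carrier proteins, had 17.3, 20.6, and 17.4 CPM in mutant HS, against 180, 47.2, and 43.2 CPM in WT HS, and fell by 2.29 (1.25 without WT HS replicate 1). *timm44* was lower only with WT HS replicate 1 (log2 fold change -0.91, and -0.39 with an adjusted p of 0.107 without it). Among 58 genes of the SLC25 carriers of the inner membrane, 11 were higher (19.0%) and 7 lower (12.1%, near the 12% of all genes), 6 and 7 held, and 70.7% had a positive log2 fold change. The ADP/ATP carrier *SLC25A4* had 559, 789, and 472 CPM in mutant HS, against 195, 280, and 291 CPM in WT HS (1.25 ± 0.27), and *slc25a47a* rose by 1.82. *SLC25A1* (ENSDARG00000080000) is 1 of several genes in the list for the citrate carrier. It had 0.305, 0.169, and 0.420 CPM in mutant HS, against 12.3, 3.02, and 2.52 CPM in WT HS. At these low levels it fell by 4.30 (3.18 without WT HS replicate 1). *SLC25A42*, which carries coenzyme A, fell by 2.17 with WT libraries that lay close together, at 40.5, 28.2, and 26.1 CPM.

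Of 30 genes for mitochondrial chaperones and proteases, 5 were higher (16.7%) and 0 lower, beside 7.25% and 12% of all genes. The 5 higher genes were called in both fits. Many members of this list are separate genes with the same symbol, *HTRA2*, so the share does not describe 30 distinct proteins. The higher genes included the Hsp70 nucleotide exchange factor *GRPEL2* (1.12), the processing peptidase subunit *PMPCB* (0.83), and the co-chaperone *DNAJA3* (0.74). The chaperonin *hspd1* was not among them, with 74.1, 55.8, and 100 CPM in mutant HS, against 64.9, 88.0, and 95.5 CPM in WT HS (-0.11, adjusted p = 0.788). Of 76 genes with symbols of mitochondrial ribosomal proteins, 9 were higher (11.8%) and 2 lower (2.63%), beside 7.25% and 12% of all genes. The 9 higher genes were called in both fits and included *MRPS16* (1.17) and *mrps36* (1.42). *mrps36* is in this list by its symbol only, which does not show that its product is a ribosomal protein. The lower genes, *mrps5* (-0.85) and *mrpl58* (-0.89), were called with WT HS replicate 1 only. Positive log2 fold changes made up 80.3% of the list, with a median of 0.38. Of 15 genes for mitochondrial aminoacyl-tRNA synthetases, *EARS2* (-0.73) was called (6.67% lower, beside 12% of all genes), and it did not hold. The 13 protein genes of the mitochondrial genome had a median log2 fold change of -0.19, and of 0.05 without WT HS replicate 1. Of these, *mt-nd5* alone was lower (-1.04, adjusted p = 0.0338, and 0.121 without WT HS replicate 1). *mt-nd1* overlapped between groups, at 681, 1491, and 929 CPM in mutant HS, against 1411, 946, and 1041 CPM in WT HS.

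Genes for antioxidant enzymes were called in 1 direction only. Of 37 genes, 9 were higher (24.3%, beside 7.25% of all genes) and 0 lower, 7 held, and the median log2 fold change was 0.76 (0.55 without WT HS replicate 1). *gstp1*, a second pi-class glutathione S-transferase, had 851, 736, and 808 CPM in mutant HS, against 139, 251, and 319 CPM in WT HS, and rose by 1.76 ± 0.29 (edgeR, adjusted p = 0.00383). *prdx1*, encoding a peroxiredoxin that removes hydrogen peroxide, had 231, 94.0, and 220 CPM in mutant HS, against 15.1, 50.8, and 69.8 CPM in WT HS (2.00 ± 0.50). *glrx2* and *TXN2*, the mitochondrial glutaredoxin and thioredoxin, rose by 1.47 and 0.96. For all 4 genes the mutant libraries lay above the WT libraries, and WT HS replicate 1 was the lowest library.

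Genes of the integrated stress response mostly had positive values, but calls went in both directions. Of 26 genes, 5 were higher (19.2%, beside 7.25% of all genes) and 3 lower (11.5%, near the 12% of all genes). All 8 held. *atf4b*, a copy of the transcription factor gene at the centre of this response, had 170, 141, and 137 CPM in mutant HS, against 69.6, 78.9, and 77.0 CPM in WT HS, with a rise of 0.99 ± 0.19 (edgeR, adjusted p = 0.00506). Its paralog *atf4a* had 402, 374, and 360 CPM in mutant HS, against 181, 266, and 263 CPM in WT HS. These groups did not overlap either, but the log2 fold change of 0.68 missed the threshold (adjusted p = 0.0544, and 0.0982 without WT HS replicate 1). *CHAC1*, which breaks down glutathione, had 546, 916, and 400 CPM in mutant HS, against 86.5, 246, and 222 CPM in WT HS (1.75 ± 0.41), and here too the groups did not overlap. *ppp1r15b*, a phosphatase subunit that ends the response, and the stress sensor *sesn2* rose by 1.46 and 1.17.

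The lower genes of this list, at a share near that of all genes, are also known as Atf4 targets in mammals. *slc7a11*, the cystine importer, had 75.9, 82.7, and 62.3 CPM in mutant HS, against 761, 256, and 155 CPM in WT HS (-2.41, and -1.44 without WT HS replicate 1). *DDIT3*, encoding the factor Chop, had 53.7, 52.4, and 73.7 CPM in mutant HS, against 337, 135, and 110 CPM in WT HS (-1.69, and -0.99 without that library). The hormone gene *stc2a* was lower by a smaller amount but with tight WT values, at 13.7, 16.0, and 23.8 CPM in mutant HS, against 34.5, 32.8, and 33.4 CPM in WT HS (-0.91). *asns*, encoding asparagine synthetase, had 13.9, 11.7, and 11.8 CPM in mutant HS, against 11.1, 8.83, and 8.47 CPM in WT HS. It passed only without WT HS replicate 1 (0.40 with an adjusted p of 0.151, and 0.57 with an adjusted p of 0.0483).

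Of 18 genes for serine synthesis and one-carbon enzymes, *sfxn1* (1.64), *psat1* (0.72), and *ALDH1L1* (0.83) were higher (16.7%, beside 7.25% of all genes). The first 2 of them were higher in both fits, and 0 genes were lower. *sfxn1* carries serine into mitochondria and *psat1* makes serine. *phgdh*, the first enzyme of serine synthesis, had 40.0, 33.9, and 48.4 CPM in mutant HS, against 32.6, 38.2, and 34.1 CPM in WT HS (0.22, adjusted p = 0.442). *shmt2* and *mthfd2*, enzymes of the mitochondrial folate cycle, gave 0.14 and 0.48 with adjusted p of 0.856 and 0.189 (edgeR). Of 21 genes for cytosolic aminoacyl-tRNA synthetases, 7 were higher (33.3%, beside 7.25% of all genes) and 3 lower (14.3%, near the 12% of all genes). Of these, 4 and 2 held. *farsa* had 86.5, 101.1, and 72.5 CPM in mutant HS, against 37.5, 42.6, and 36.5 CPM in WT HS (1.16 ± 0.19), and *aars1*, *hars*, and *yars1* rose by 0.69 to 1.19. *CARS1* had 31.0, 15.9, and 53.3 CPM in mutant HS, against 321, 99.2, and 111 CPM in WT HS, and fell by 2.41 (1.62 without WT HS replicate 1).

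Of 32 genes for ER chaperones and the unfolded protein response, 3 were higher and 4 lower, and 1 and 3 held. These shares of 9.38% and 12.5% lay close to the 7.25% and 12% of all genes, and 46.9% of the list had a positive log2 fold change. *hyou1*, an ER chaperone of the Hsp110 kind, had 15.1, 21.2, and 17.9 CPM in mutant HS, against 99.3, 39.5, and 31.1 CPM in WT HS (-1.65, and -0.92 without WT HS replicate 1). *hspa5*, encoding the main ER chaperone BiP, lay lower in every mutant library, at 61.5, 74.8, and 58.8 CPM, against 123, 93.8, and 79.7 CPM in WT HS, but missed the threshold (-0.60, adjusted p = 0.112). Of 28 genes for cytosolic heat shock proteins, 3 were higher (10.7%) and 1 lower (3.57%), 71.4% had a positive log2 fold change, with a median of 0.26, and *BAG3* (1.2) and *HSP90AA1* (-2.09) held. *HSP90AA1* had 160, 66.4, and 199 CPM in mutant HS, against 978, 401, and 430 CPM in WT HS. The constitutive *HSPA8* (ENSDARG00000068992) had 9970, 16994, and 11281 CPM in mutant HS, against 5111, 6231, and 6254 CPM in WT HS, but its rise of 1.12 did not hold (adjusted p = 0.0621 without WT HS replicate 1). For the p53 targets, *CCNG1* (1.62) and *PHLDA3* (0.82) were higher out of 13 genes, in both fits, a share of 15.4% beside 7.25%.

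Genes of the translation apparatus, much of which the HS fraction gathers, changed by small amounts or in opposite directions. Of 79 genes for cytosolic ribosomal proteins, *RPL19* alone was called (0.99, adjusted p = 0.026), yet 93.7% had a positive log2 fold change and 58.2% had every mutant library above every WT library, against 16.3% of all genes. Their median was 0.42, and 0.52 without WT HS replicate 1, when 4 were called. Of 15 elongation factor genes, 3 were higher (20.0%, beside 7.25% of all genes) and 2 held, *EEF1B2* (1.03) and *EEF2* (0.72). Of 55 initiation factor genes, 10 were higher (18.2%) and 9 lower (16.4%), beside 7.25% and 12% of all genes. Of these, 10 and 5 held. Subunits of the eIF3 scaffold such as *EIF3I* (488, 605, and 493 CPM in mutant HS, against 288, 275, and 252 CPM in WT HS) and *EIF3K* (243, 238, and 250 CPM in mutant HS, against 112, 143, and 115 CPM in WT HS) rose by 0.96 and 0.98, and the alpha subunit of eIF2, *EIF2S1*, by 0.84.

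The lower initiation factors included those that bridge or join. *EIF4G1*, the scaffold that links the cap to the ribosome, had 126, 100, and 148 CPM in mutant HS, against 740, 391, and 416 CPM in WT HS, and fell by 2.05 (SE 0.27, edgeR, adjusted p = 0.00248), and by 1.66 without WT HS replicate 1. *eif5b*, which joins the ribosomal subunits, had 219, 139, and 304 CPM in mutant HS, against 2088, 706, and 729 CPM in WT HS (-2.41 ± 0.44, and -1.67 without WT HS replicate 1). *EIF3J*, loosely bound to eIF3, fell by 1.41. In the machinery that brings nascent chains to the ER, 5 of 29 genes were higher and 5 lower (17.2% each). The shares of all genes were 7.25% and 12%. Of the called genes, 3 and 4 held. The small subunits *SRP14* (0.89) and *sec61b* (1.02) and the oligosaccharyltransferase subunit *dad1* (0.81) rose, while *sec62* (-2.16), *sec63* (-1.53), and *SRP19* (-1.94) fell. *sec62* had 48.0, 40.0, and 66.6 CPM in mutant HS, against 428, 134, and 131 CPM in WT HS. Without WT HS replicate 1, the log2 fold changes of *sec62*, *sec63*, and *SRP19* were -1.33, -0.86, and -1.27, and all 3 held.

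**Figure D4:**
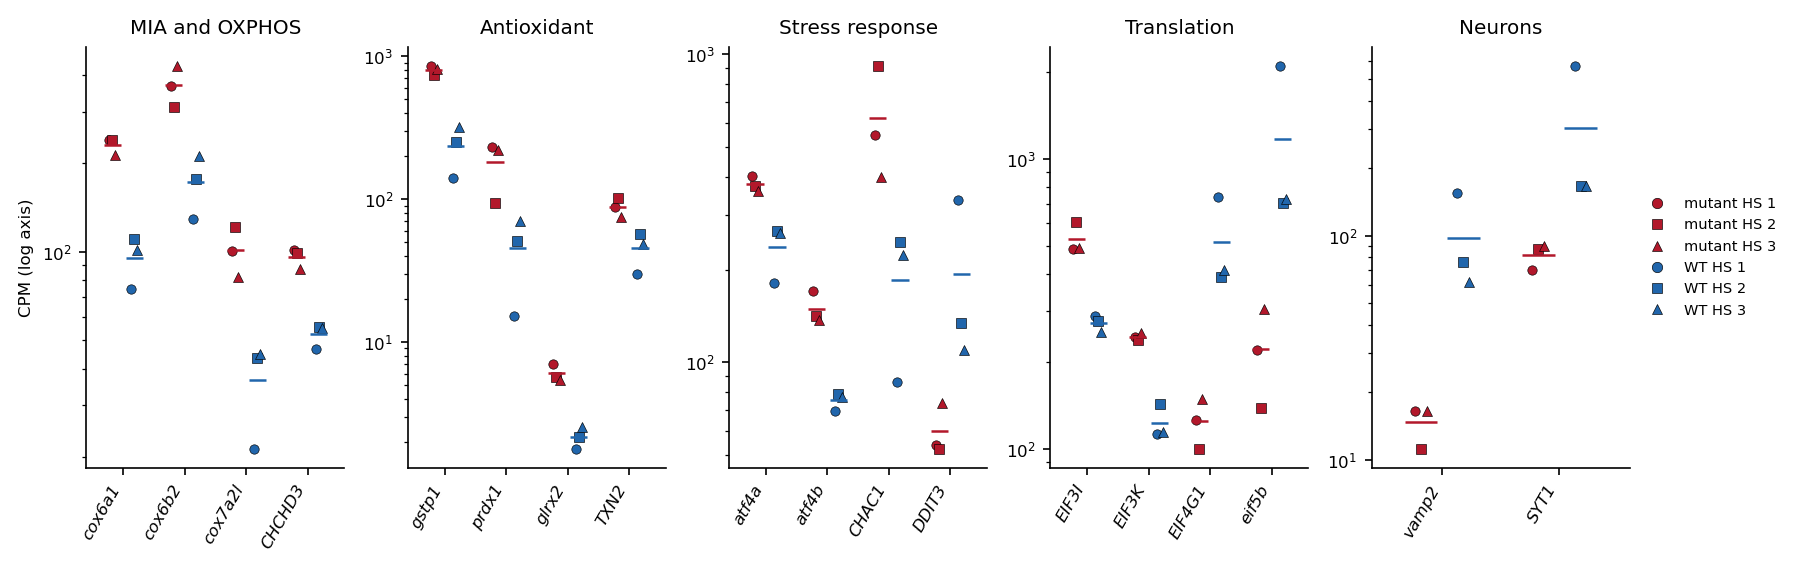
Level in CPM (log axis, a separate range in each panel) of genes from 5 groups, with mutant HS libraries in red, WT HS libraries in blue, replicates 1 to 3 by shape, and group means as lines. Mutant points lie above the WT points of their gene in the first 2 panels and below them for the neuronal genes. In the stress response panel *DDIT3* is lower and the others higher, and in the translation panel *EIF4G1* and *eif5b* are lower and *EIF3I* and *EIF3K* higher.

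For metabolic genes outside mitochondria, the share of higher genes lay above that of all genes, and the share of lower genes did not. Of 29 genes for cholesterol synthesis and uptake, 4 were higher (13.8%) and 1 lower (3.45%), beside 7.25% and 12% of all genes. All of these held. *cyp51*, encoding lanosterol demethylase, had 46.8, 131, and 42.0 CPM in mutant HS, against 9.87, 25.4, and 24.8 CPM in WT HS (1.87 ± 0.44), and *MSMO1*, encoding a sterol oxidase of the same pathway, had 36.3, 104, and 25.5 CPM in mutant HS, against 5.24, 12.2, and 11.7 CPM in WT HS (2.50 ± 0.49). Mutant HS replicate 2 was the highest library for both genes, and without it their log2 fold changes were 1.14 and 1.65. *hmgcs1* gave 0.44 (adjusted p = 0.395), and *dhcr7*, which acts last, had 22.7, 45.8, and 28.0 CPM in mutant HS, against 118, 78.8, and 73.7 CPM in WT HS, and fell by 1.49.

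Of 38 glycolysis genes, 7 were higher (18.4%, beside 7.25% of all genes) and 4 lower (10.5%, near the 12% of all genes). Of these, 5 and 2 held. The enzymes *GPI* (ENSDARG00000103826, 1.39) and *ALDOA* (ENSDARG00000034470, 1.17) rose in both fits. *HK1*, the first enzyme of the pathway, had 44.7, 28.2, and 38.0 CPM in mutant HS, against 70.34, 73.6, and 82.7 CPM in WT HS, and fell by 1.03 with and by 1.04 without WT HS replicate 1. Of 44 proteasome subunits, *psmb7* was higher (0.77) and *PSMD1*, *PSMC1*, *PSMD7*, and *psmc1b* were lower. These shares of 2.27% and 9.09% lay below the 7.25% and 12% of all genes, and 77.3% of the list had a positive log2 fold change, with a median of 0.27. *PSMD1* alone held, at 84.5, 69.2, and 66.9 CPM in mutant HS, against 695, 194, and 145 CPM in WT HS (-2.23, and -1.17 without WT HS replicate 1). Of 29 genes for DNA replication and mitosis, *lig1* (-2.16) and *TPX2* (-1.15) were lower in both fits, a share of 6.90% beside 12%.

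Among the tissue markers, the neuronal list had the largest share of called genes. Of 25 neuronal genes, 13 were lower (52.0%, beside 12% of all genes) and 0 higher, and 11 of these held. Their median log2 fold change was -1.07, and -0.79 without WT HS replicate 1. The summed level of the list was 3900, 2347, and 5361 CPM in mutant HS, against 9865, 8008, and 7625 CPM in WT HS. *vamp2*, encoding a SNARE protein of synaptic vesicles, had 16.6, 11.2, and 16.6 CPM in mutant HS, against 155, 76.1, and 62.0 CPM in WT HS (-2.72 ± 0.42, edgeR, adjusted p = 0.00312, and -2.19 without WT HS replicate 1). *SYT1*, the calcium sensor of release, had 70.0, 86.9, and 90.1 CPM in mutant HS, against 569, 166, and 166 CPM in WT HS (-1.87, and -0.97 without WT HS replicate 1). Without mutant HS replicate 1, 6 of the 25 genes were lower. In the MB fraction the median of these genes was -0.20.

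The other tissue lists had smaller shares of called genes. Of 32 photoreceptor genes, 4 were lower (12.5%, near the 12% of all genes), all in both fits, and 1 was higher. *CNGA3*, a channel subunit of cones, had 7.02, 4.39, and 16.4 CPM in mutant HS, against 78.6, 40.1, and 48.6 CPM in WT HS (-2.59), and *PDE6C* fell by 0.89. Of 33 skeletal muscle genes, 10 were higher (30.3%, beside 7.25% of all genes) and 2 lower (6.06%, beside 12%), and 8 and 2 held. However, 57.6% of this list had a positive log2 fold change, near the 53.5% of all genes. Every mutant library lay above every WT library for 36.4% and below for 24.2%, beside 16.3% and 17.2% of all genes. At an unadjusted p under 0.05, 13 were higher and 6 lower, and DESeq2 called 13 and 4. *pvalb2*, a calcium buffer, had 7857, 7943, and 7244 CPM in mutant HS, against 4082, 3846, and 3964 CPM in WT HS (0.95 ± 0.22), and *tpma*, a tropomyosin, rose by 1.34. The lower muscle genes were the 2 *TTN* genes (ENSDARG00000028213, -1.94, and ENSDARG00000000563, -1.36), which encode the giant protein titin. Without WT HS replicate 1 these gave -1.22 and -0.77. Of 8 heart genes, *nppb* (1.92), *nppa* (1.19), and *MYL7* (1.33) were higher (37.5%, beside 7.25% of all genes), and *nppb* and *MYL7* held. Among 20 epidermal genes, *krt91*, *krt93*, and *agr2* rose by 1.04 to 1.32 and *tp63* fell by 0.77, all in both fits. These shares were 15% and 5%, beside 7.25% and 12% of all genes.

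Of 53 lens genes, 4 were higher (7.55%, near the 7.25% of all genes) and 1 lower (1.89%, beside 12%), 1 of each in both fits. Of the lens genes, 92.5% had a positive log2 fold change, with a median of 0.66. Without mutant HS replicate 2, 28 of them were higher. *crybb1l1* had 2883, 1635, and 2014 CPM in mutant HS, against 536, 1284, and 950 CPM in WT HS (1.24 ± 0.34, and an adjusted p of 0.055 without WT HS replicate 1). Among 25 liver genes, 2 were higher (8%, near the 7.25% of all genes) and 0 lower. Positive log2 fold changes made up 84% of this list, with a median of 0.43. At an unadjusted p under 0.05, 5 were higher and 1 lower, and DESeq2 called 5 higher and 0 lower. *apoa1b* had 2357, 4861, and 1410 CPM in mutant HS, against 743, 907, and 956 CPM in WT HS (1.73 ± 0.40, and 1.09 without mutant HS replicate 2). The rise of *serpina1* (0.85) did not hold. Of 18 intestinal genes, 3 were higher (16.7%, beside 7.25% of all genes) and 1 lower (5.56%, beside 12%). The higher genes were both *apoa4b.2* genes (ENSDARG00000094929, 1.2, and ENSDARG00000020866, 1.3) and the bile acid carrier *slc10a2* (1.19). *mep1a.1* was lower (-0.94) only with WT HS replicate 1, and 1 other gene only without it. Of 30 genes of the exocrine pancreas, *amy2a* was the only one called with all libraries (-1.31), and it did not hold. Without WT HS replicate 1, 1 other gene was lower. At an unadjusted p under 0.05, 5 were lower and 1 higher, and DESeq2 called 3 lower and 0 higher. Of the list, 23.3% had a positive log2 fold change, and the median was -0.36 (-0.14 without WT HS replicate 1). In MB the median was -1.56, with 0 genes called. Of the lists for erythrocytes, leukocytes, and cartilage, no more than 1 gene passed in either direction (*hbae1.2* at 1.19, *epb41b* at -1.40, *mmp13a* at 1.3, *marco* at -1.55, and *COL5A1* at -0.94), and of these *hbae1.2* alone held. Of the 20 cartilage genes, however, 7 were lower and 0 higher both at an unadjusted p under 0.05 and with DESeq2, 10.0% had a positive log2 fold change, and the median was -0.59 (-0.18 without WT HS replicate 1). For the 12 erythrocyte genes these were 4 higher and 1 lower, and 3 and 1 with DESeq2. Positive values made up 75% of them, with a median of 0.64 (0.45 without WT HS replicate 1). For the 19 leukocyte genes there were 5 higher and 1 lower, and 4 and 1 with DESeq2, at 47.4% positive values. Among 13 endocrine genes edgeR called 0, with 1 at an unadjusted p under 0.05 and 1 called by DESeq2. Among 9 genes of the CCT chaperonin it also called 0, with 4 at an unadjusted p under 0.05 and 4 called by DESeq2, all of them positive. All 9 had a positive log2 fold change, at a median of 0.49, and 55.6% had every mutant library above every WT library.

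**Figure D5:**
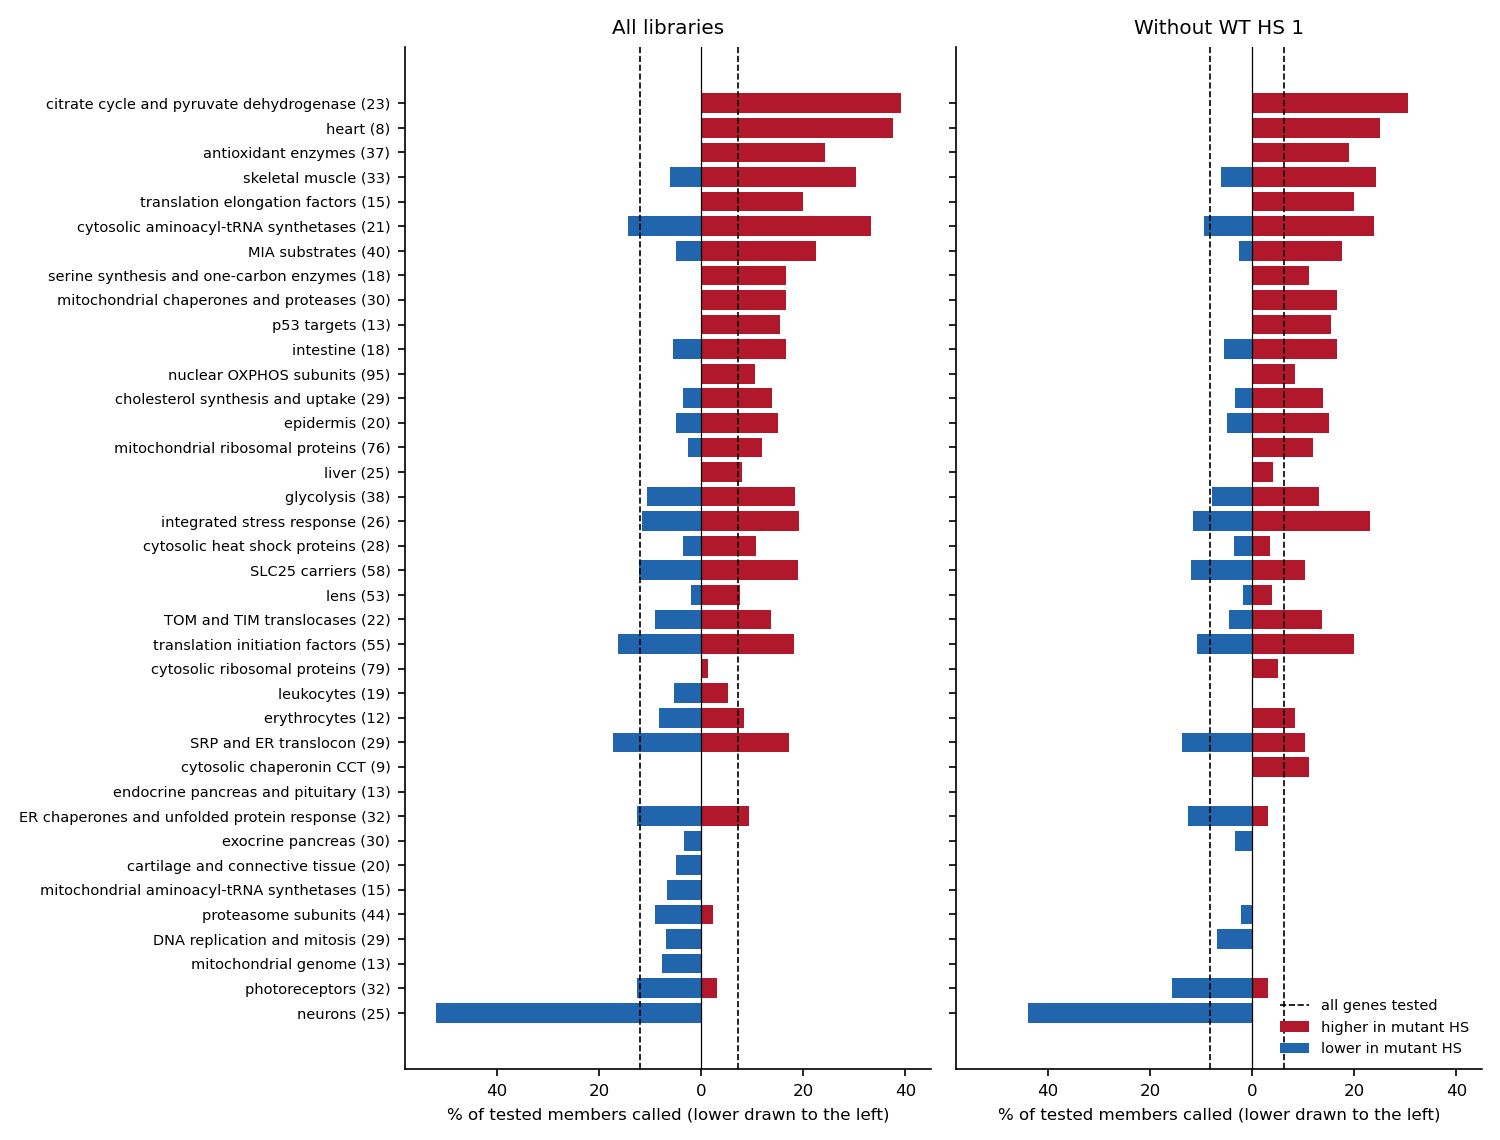
Share of tested genes of each list (number in parentheses) called higher (red, to the right) or lower (blue, to the left) in mutant HS, for all libraries (left panel) and without WT HS replicate 1 (right panel). Dashed lines give the shares over all genes tested, 7.25% and 12% on the left, and 6.27% and 8.37% on the right. The citrate cycle list reaches furthest to the right and the neuronal list furthest to the left in both panels.

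In the fit of all 12 libraries, the same comparison in the MB fraction gave far fewer calls, but 1 other fit reversed this order. When each fraction was fitted on its own 6 libraries, edgeR called 0 higher and 0 lower genes in HS, against 27 and 46 in MB. With the replicate number as a block, it called 103 higher and 773 lower in HS, against 102 and 265 in MB, so that HS again had more calls. That block ran across genotypes, which the numbers did not pair. Among all 12 libraries, 3 MB genes were higher and 6 lower (0.0128% and 0.0256% of the genes tested), with 2402 genes at an unadjusted p under 0.05, and DESeq2 called 161 and 323. Of the genes named here, *ctsll* was called in both fractions, with a log2 fold change of 4.01 in MB (edgeR, adjusted p = 0.00135). Of the genes higher in HS in both fits, 83.4% also had a positive value in MB, with medians of 1.14 in HS and 0.30 in MB. Of those lower, 89.3% had a negative value in MB, with medians of -1.83 in HS and -0.44 in MB. Values had the same sign for 67.9% of all genes. The genes were chosen by their HS changes, which by itself favors larger medians in HS than in MB. Same-numbered HS and MB libraries also deviated together, so the signs in MB are not independent of those in HS. The test of the difference itself (HS change minus MB change) called 0 genes with edgeR without a block, with 3374 at an unadjusted p under 0.05, while DESeq2 called 233 positive and 563 negative. With a block for each genotype and replicate number, each HS library was set against the same-numbered MB library. That fit of edgeR called 105 positive and 691 negative (0.448% and 2.95% of the genes tested). In that fit the neuronal *vamp2* (log2 difference without the block of -2.46, edgeR, adjusted p with the block of 0.0236) and *tomm70a*, *eif5b*, and *EIF4G1* were negative, and *CCNG1* (2.17, adjusted p with the block of 0.0336) was positive.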

How the data were processed

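Expected counts, the estimated number of read pairs per gene, were deposited by the authors for each library in 1 table per genotype. According to the paper's methods and the submitters' processing notes, 75 nt paired reads from stranded poly(A) libraries were quantified with Salmon 1.4.0 against danRer11 transcripts of Ensembl release 101, together with the spike-in sequences, and the values were not scaled. Of the deposited values, 30.5% were not whole numbers, so they were rounded before testing. Tables were joined by gene ID, and the 92 spike-ins were kept out of library sizes and tests.

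Genes with more than 50 counts in total in the 6 libraries of each genotype (23452) were tested with edgeR 4.0.16 (R 4.3.3): TMM scaling, 1 mean per genotype and fraction over all 12 libraries, quasi-likelihood F tests, and Benjamini-Hochberg adjustment over all tested genes, called at an adjusted p of at most 0.05. The authors state DESeq2 for comparing fractions within a genotype, and DESeq2 1.42.0 was an alternative here. CPM values were computed from TMM-scaled library sizes. Log2 fold changes are mutant over WT, with a prior count of 0.125. Other alternatives were TMM without mitochondrial genome genes, library totals, spike-in totals, other filters, HS libraries only, each library left out in turn, and the replicate number as a block. Library shares were compared with exact permutation tests (scipy 1.17.1), and figures were drawn with matplotlib 3.10.9.

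The replicate numbers did not pair the genotypes: deviations of same-numbered HS libraries from their group means correlated at -0.16, -0.19, and 0.31 across genes. Same-numbered HS and MB libraries correlated at 0.32, 0.27, and 0.54 in mutants and at 0.60, 0.58, and 0.50 in WT. Each mutant HS library correlated most with its same-numbered MB library. In WT, however, HS replicate 3 correlated at 0.53 with MB replicate 2, and HS replicate 2 at 0.37 with MB replicate 3. The pairing of WT replicates 2 and 3 by number is thus not settled. For this reason the blocked value only stands beside the difference between fractions.

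The members and gene lists were chosen with earlier results of these data known. Named genes are *chchd4a*, the 12 largest changes per direction among genes with a symbol, more than 1000 counts over the HS libraries, calls in both fits, and groups that did not overlap, up to 4 called members per list and direction by lowest adjusted p, and the heads of pathways. *chchd4b* and ENSDARG00000080337 were added after their values were seen. Symbols came from a gene name table and the study's supplement, and those in capitals are of human orthologues. Genes with near copies may share reads. The fit was also run on simulated counts, drawn independently for each library with means and spread taken from these data. Of 100 genes changed by 1 on the log2 scale, it called 13 in the right direction, and 3 without WT HS replicate 1. Of 100 genes changed by 2, it called 85 and 74. All other genes were simulated as unchanged, whereas 4510 genes were called in the data. The adjusted threshold was therefore stricter in the simulation, and these counts do not give the share of true changes found in the data. Some genes are not reported here.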

Additional observations from a re-analysis of the deposited data

Results flagged for a closer look

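The spike-ins lie outside the gene measurements and differed between the genotypes. Gene counts per spike-in count were 19.0, 30.7, and 11.2 in mutant HS replicates 1, 2, and 3, against 2.33, 6.04, and 9.18 in WT HS replicates 1, 2, and 3. The means of their log2 values differed by 1.89, mutant HS minus WT HS, and the groups did not overlap (exact permutation test, two-sided, n = 3 per group, p = 0.10, the smallest possible). Mutant HS replicate 3 and WT HS replicate 3 lay close together, and without WT HS replicate 1 the groups still did not overlap. Its part in the gene results was not tested.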

How the results depend on the processing

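The number of genes higher and lower in mutant HS depended on the fit. It was 2699 higher with DESeq2 and 12969 higher and 37 lower with spike-in totals. With HS libraries only it was 0 and 0, and 151 and 834 without WT HS replicate 1. DESeq2 on the HS libraries gave 1044 higher. The last 2 settings were chosen after seeing the data. With the replicate number as a block across genotypes, which the numbers did not pair, there were 103 higher and 773 lower. Leaving out 1 library at a time gave 615 to 1811 higher and 1317 to 3738 lower genes. Other scalings and filters stayed within 1.5 times.

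In MB, DESeq2 gave 161 higher and 323 lower, MB libraries only 27 and 46, the block 102 and 265, spike-in totals 5 and 2, no filter 6 higher, library totals 2 lower, and no replicate 1 of WT in either fraction 6 and 10. Leaving out 1 library gave 2 to 40 and 1 to 73. For HS change minus MB change, DESeq2 gave 233 positive and 563 negative, library totals 5 and 335, spike-in totals 4 positive, no replicate 1 of WT 4 and 45, and the block 105 and 691. Leaving out 1 library gave 0 to 2 and 0 to 12. The cause was not tested in any of these cases.

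Of the 135 called genes named here, 81 were called in all 12 fits that left out 1 library, 54 lost the call in at least 1, and 0 changed sign. The block lowered 96 of the 145 named genes below the threshold, and HS libraries only 135. Signs of called values changed under spike-in totals alone, where the median of all genes was 1.82, and *mt-nd1*, not called otherwise, was called higher there. Log2 fold changes were then 0.81 for *TPX2*, 0.65 for *hyou1*, 0.88 for *CCS*, 0.015 for *sec62*, 0.078 for *SRP19*, 0.64 for *sec63*, 0.16 for *tomm70a*, 1.15 for *timm44*, 0.60 for *dhcr7*, 0.64 for *HK1*, 0.079 for *slc7a11*, 0.47 for *DDIT3*, 0.79 for *stc2a*, 1.18 for *EARS2*, 0.93 for *mt-nd5*, 1.89 for *mt-nd1*, 1.09 for *mrps5*, 0.98 for *mrpl58*, 0.23 for *PSMD1*, 0.59 for *PSMC1*, 0.84 for *PSMD7*, 0.79 for *psmc1b*, 0.29 for *EIF3J*, 1.21 for *COL5A1*, 0.97 for *tp63*, 0.86 for *epb41b*, 0.76 for *amy2a*, 0.74 for *mep1a.1*, 0.78 for *marco*, 0.45 for *SYT1*, 0.66 for *PDE6C*, and 0.21 and 0.75 for the *TTN* genes ENSDARG00000028213 and ENSDARG00000000563.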
